A study of Mus musculus with 2 samples.

Results

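The genes described here are the nuclear-encoded subunits of the mitochondrial respiratory chain and ATP synthase, with the complex I assembly factors that share their naming. They were chosen by symbol: every gene starting with Nduf, Uqcr, Atp5, Cox4, Cox5, Cox6, Cox7 or Cox8, plus Sdha, Sdhb, Sdhc and Sdhd, that had at least 50 unique molecular identifiers (UMIs) over both libraries. Of 31053 genes listed, 93 matched the symbols and 89 reached the count. Complex I gave 36 members, complex II 4, complex III 8, complex IV 16 and complex V (ATP synthase) 15. The others were 8 complex I assembly factors named Ndufaf, the supercomplex factor Cox7a2l, and Atp5s, which is not a subunit. Supercomplexes are complexes joined together. Ndufa4 and Ndufa4l2 were counted with complex IV. Subunits whose symbols do not match, such as Cyc1 of complex III, are not members. The 4 genes below the limit were Cox7b2 with 2 UMIs, Cox8c with 1, Cox8b with 0 and a second gene identifier for Atp5o with 0. Just above it stood Cox7a1 with 75 UMIs and Cox6a2 with 190.

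The respiratory chain passes electrons from NADH (complex I) and succinate (complex II) through complex III to oxygen at complex IV, and the proton gradient it builds drives ATP synthesis at complex V. Most subunits are encoded in the nucleus and imported. A small core of complexes I, III, IV and V is encoded by mitochondrial DNA. Several complex IV subunits come in a form made in nearly all cells and a form restricted to some tissues or to low oxygen. Cox4i2 is the low-oxygen and lung form of Cox4i1, Ndufa4l2 is a hypoxia-inducible relative of Ndufa4 long known as a pericyte marker, and Cox6a2, Cox7a1 and Cox8b are the heart and skeletal muscle forms.

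The study compared dental pulp of a control mouse group with that of mice lacking Vegfr2 (the gene Kdr, the main receptor for VEGF-A) in endothelial cells, both C57BL/6 at postnatal day 12. Live cells, sorted as negative for propidium iodide, gave 1 droplet-based single-cell 3' library per genotype. The driver of the deletion, the control's own alleles and the number of animals per library are not given in the sources used here. With 1 library per genotype there is no replicate and no test between genotypes. All intervals below are exact 95% intervals that cover counting error only. They do not cover differences between animals or library preparations, and genotype cannot be told apart from library, animal, sex mix or version of the counting software.

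The control matrix held 35918862 UMIs in 3487 barcodes and the knockout 17277162 in 2563. After filtering, 2309 and 1679 cells remained, with medians of 12198 and 8293 UMIs, and the libraries shared 3 barcodes. Xist UMIs without Y-linked UMIs were seen in 1714 control and 873 knockout cells, and the reverse in 328 and 447, so each library held cells of both sexes in different proportions. Cells were assigned to a class when they held at least 3 of its marker genes and every other class reached no more than 1 marker for each 2 of its own. At least 50 cells in each library were found in 6 classes: endothelial (398 control and 138 knockout cells), mural (102 and 58), pulp mesenchyme (505 and 307), glia (445 and 370), macrophage or monocyte (211 and 148) and dendritic (75 and 85). The median cell held 7 of 8 endothelial, 6 of 8 mural, 6 of 8 mesenchymal, 6 of 8 glial, 6 of 8 macrophage and 4 of 8 dendritic markers of its own class. Mural cells also held a median of 2 mesenchymal markers. Kdr itself stood at 1048 CPM (UMIs per 1000000 UMIs of the class) in control and 650.3 CPM in knockout endothelial cells, a ratio of 0.621 (0.572 to 0.672), and 115 of the 138 knockout endothelial cells still had a Kdr UMI. In pulp mesenchyme the Kdr ratio was 0.503 (0.323 to 0.757), on 148 control and 28 knockout UMIs. It was 0.115 (0.00273 to 0.747) in glia and 2.29 (1.11 to 4.71) in macrophages or monocytes, both on few UMIs. Its intervals held 1 in mural and dendritic cells. A 3' tag checks the deletion only if the deleted part reaches it, which the sources used here do not say.

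The most cell-type-specific members were Ndufa4l2 and Cox4i2, so the Ndufa4 pair is shown first. Ndufa4l2 lies on chr10:127514982-127516499, plus strand (GRCm38, coding span), in 4 coding exons, and Ndufa4 on chr6:11900535-11907365, minus strand, also in 4. Their coding sequences, from the GENCODE transcripts and printed 5′ to 3′ with the stop codon, are 264 and 249 bases long. Capitals mark the 168 of 245 aligned bases (68.6%) that are the same in both genes.
Ndufa4l2: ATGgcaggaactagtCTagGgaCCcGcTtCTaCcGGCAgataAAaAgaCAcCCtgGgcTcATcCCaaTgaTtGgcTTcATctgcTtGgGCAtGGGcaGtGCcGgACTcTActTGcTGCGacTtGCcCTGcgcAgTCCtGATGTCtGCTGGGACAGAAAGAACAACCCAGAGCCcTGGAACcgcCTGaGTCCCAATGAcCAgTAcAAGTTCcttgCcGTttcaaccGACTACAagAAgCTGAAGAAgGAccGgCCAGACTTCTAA
Ndufa4: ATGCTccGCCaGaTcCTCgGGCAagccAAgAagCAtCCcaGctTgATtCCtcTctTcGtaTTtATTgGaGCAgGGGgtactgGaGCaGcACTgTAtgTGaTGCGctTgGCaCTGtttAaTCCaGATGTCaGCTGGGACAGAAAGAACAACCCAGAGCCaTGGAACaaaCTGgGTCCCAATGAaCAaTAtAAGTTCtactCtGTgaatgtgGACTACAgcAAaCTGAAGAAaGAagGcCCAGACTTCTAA
The coding sequences of Cox4i2 and Cox4i1 matched at 339 of 490 aligned bases (69.2%). The tags counted lie at the 3' end of the transcripts, and the sources used here do not say how reads matching near-identical copies or pseudogenes were split.

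Apart from those isoforms, the members were spread evenly over the cell classes. In the control library, 5 of 87 members with at least 50 UMIs (5.75%) reached a level in their highest class at least 2-fold above that in the median class, against 46.0% of all 12898 genes so counted. The 5 were Ndufa4l2, Cox4i2, Atp5s, Ndufaf6 and Ndufa8, and the ratio of the highest to the median class was 1.30 for the median member and 1.84 for the median gene. All genes were not matched to the members for UMI count. The part of counting error in this contrast was not tested. Summed over all 89 members, the control level ran from 16274 CPM in endothelial cells through 18370 in dendritic cells, 18713 in macrophages or monocytes, 19423 in glia and 19700 in pulp mesenchyme to 23316 CPM in mural cells. Neighbours in this order differed by little from dendritic cells to mesenchyme, while the endothelial and mural classes lay at the bottom and top. The mural class was not even: control smooth muscle-like cells summed to 25696 CPM and pericyte-like cells to 20842 CPM (split described below). These sums include Ndufa4l2 and Cox4i2. Without the 2 genes the control classes ran from 16270 to 21667 CPM. Mural cells were the highest of the 6 classes for 40 members, and endothelial cells the lowest for 37 and dendritic cells for 27. The same counts were not made over all genes, so whether they are particular to the members is not known. These orders describe 1 library each and compare shares of a cell's RNA, so a class with more RNA of other kinds has a lower share without fewer molecules per cell.

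**Figure D1:**
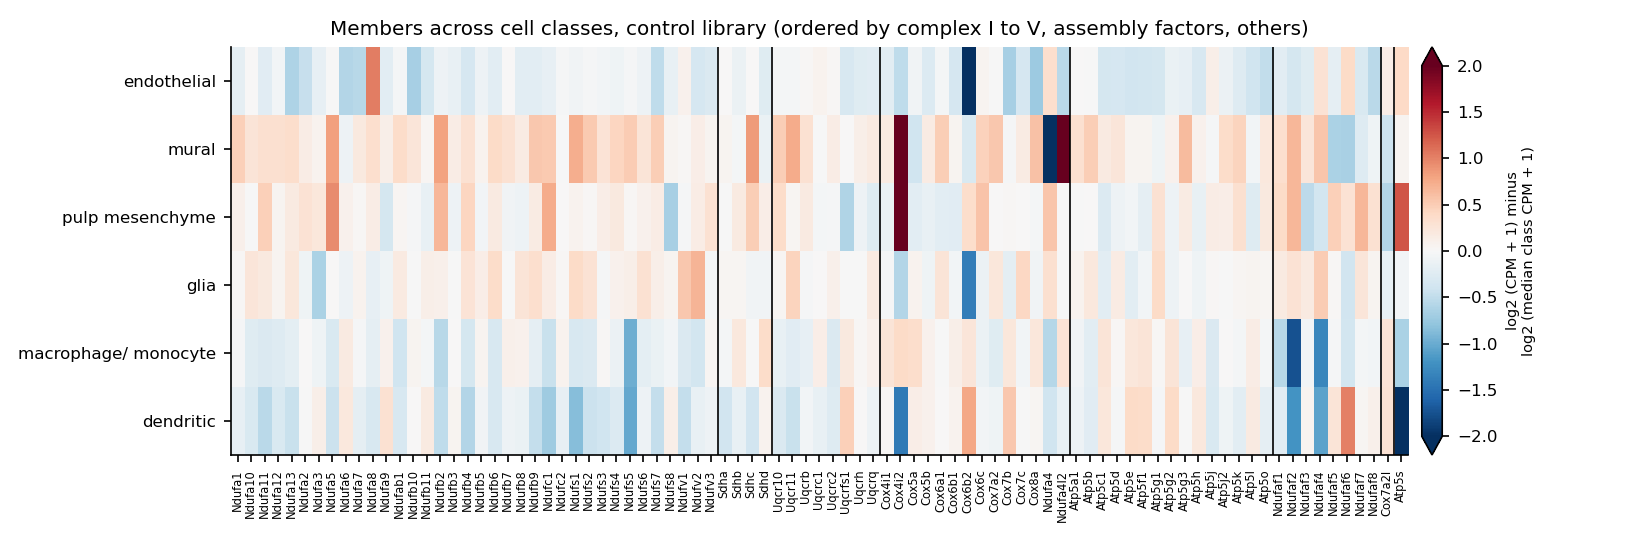
Level of each member with at least 50 UMIs in the 6 classes of the control library, as log2 of CPM + 1 minus the same value for the gene's median class (red above, blue below; the scale is capped at 2 in each direction); columns are genes ordered by complex and divided by black lines. Ndufa4l2 in mural cells and Cox4i2 in mural cells and pulp mesenchyme are the darkest red cells, and Ndufa4 in mural cells is dark blue, as are the low-count Cox6b2 in endothelial and Atp5s in dendritic cells.

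Complex I ran from 4783 CPM summed over its 36 members in control endothelial cells to 6717 in mural cells. Its 7 core subunits, which carry the flavin and the iron-sulphur clusters, made up 555.3 CPM of the endothelial and 785.7 CPM of the mural sum. The 29 accessory subunits made up the rest. The core sum was lowest in dendritic cells, at 510.1 CPM, and not in endothelial cells. Ndufa2 was the complex I member with the highest level over the 6 control classes together (324.3 CPM), followed by Ndufa13 (323.7 CPM). Ndufa8, an accessory subunit, went against the general order: it was highest in endothelial cells at 222 CPM and lay between 87.2 CPM in dendritic cells and 137 CPM in mural cells elsewhere. In the knockout library the endothelial level of Ndufa8 was 166 CPM, still the highest of the 6 classes. Atp5s reached 19.1 CPM in control mesenchyme and 0.681 CPM in dendritic cells, and Ndufaf6 17.7 CPM in dendritic cells and 4.88 CPM in mural cells, both on few UMIs.

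The 4 members of complex II had the lowest summed transcript level of complexes I to V. It ran from 266 CPM in dendritic to 360 CPM in mural cells of the control library. The complexes have unlike numbers of genes, so these sums do not rank the complexes themselves. Sdhb, the iron-sulphur subunit, led with 92.3 CPM over the 6 control classes together, ahead of the flavoprotein Sdha with 87.5 CPM and the membrane anchor Sdhc with 76.9 CPM. Sdhc was the most uneven of the 4, with 123 CPM in mural and 51.8 CPM in dendritic cells. Uqcrh, the hinge protein of complex III, led its complex with 563.6 CPM. Cox4i1 led complex IV with 772.9 CPM, and Atp5e, the epsilon subunit of the F1 part, led complex V with 695.3 CPM. The assay counts molecules by their 3' end and these levels are not divided by transcript length.

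Ndufa4l2 was a mural gene in both libraries. It reached 1044 CPM in control and 866.5 CPM in knockout mural cells, and at most 3.09 CPM in the other 5 control classes and 6.67 CPM in the other 5 knockout classes. Its partner Ndufa4 had the opposite pattern, with 77.1 CPM in control and 98.9 CPM in knockout mural cells against 243 to 535 CPM in the other control classes. Ndufa4l2 therefore made up 93.1% (91.5 to 94.5) of the UMIs of the pair in control mural cells and 89.8% (86.2 to 92.6) in knockout mural cells, and no more than 1.76% in any other of the 6 classes. At the level of single cells, 66 of 102 control mural cells had UMIs of Ndufa4l2 and none of Ndufa4, 30 had both and 0 had Ndufa4 alone, while in control mesenchyme 472 of 505 cells had Ndufa4 alone. After each cell was thinned to 2000 UMIs, 77.8% (68.3 to 85.5) of 99 control and 88.0% (75.7 to 95.5) of 50 knockout mural cells had an Ndufa4l2 UMI, against 94.1% and 94.8% unthinned. Thinned shares in endothelial cells were 1.08% and 0.935% (median depths 10103 and 5963 UMIs). The knockout over control ratio of Ndufa4l2 in mural cells was 0.830 (0.731 to 0.939) from all UMIs and 1.01 after thinning, so its direction was not stable.

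The mural gate was strict, and 278 of 444 cells in clusters named mural stayed unassigned. Those clusters held 4640 of the 4774 Ndufa4l2 UMIs of all kept cells. Taking the clusters in place of the gate, Ndufa4l2 was 86.2% of the control pair. Mural cells were split into smooth muscle-like cells (at least 2 of 6 contractile markers) and pericyte-like cells (at most 1 of these and at least 1 of 4 pericyte markers). Ndufa4l2 was at 1090 CPM (1002 to 1183) in 43 control smooth muscle-like cells and at 997 CPM (912 to 1089) in 59 control pericyte-like cells, and in the knockout at 900.2 CPM in 35 and 778 CPM in 21 such cells. The 2 subsets overlapped in their intervals in each library. With the cells of the mural clusters, which are more, they did not overlap in the knockout, at 915 CPM (855 to 978) in 102 smooth muscle-like and 706 CPM (624 to 796) in 56 pericyte-like cells, and barely did in the control, at 1059 CPM (1015 to 1104) and 961 CPM (908.9 to 1016). Ndufa4 was lower in control pericyte-like cells, at 27.9 CPM (15.2 to 46.8) against 124 CPM (96.1 to 159) in smooth muscle-like cells, but not in the knockout, at 94.0 and 102 CPM.

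**Figure D2:**
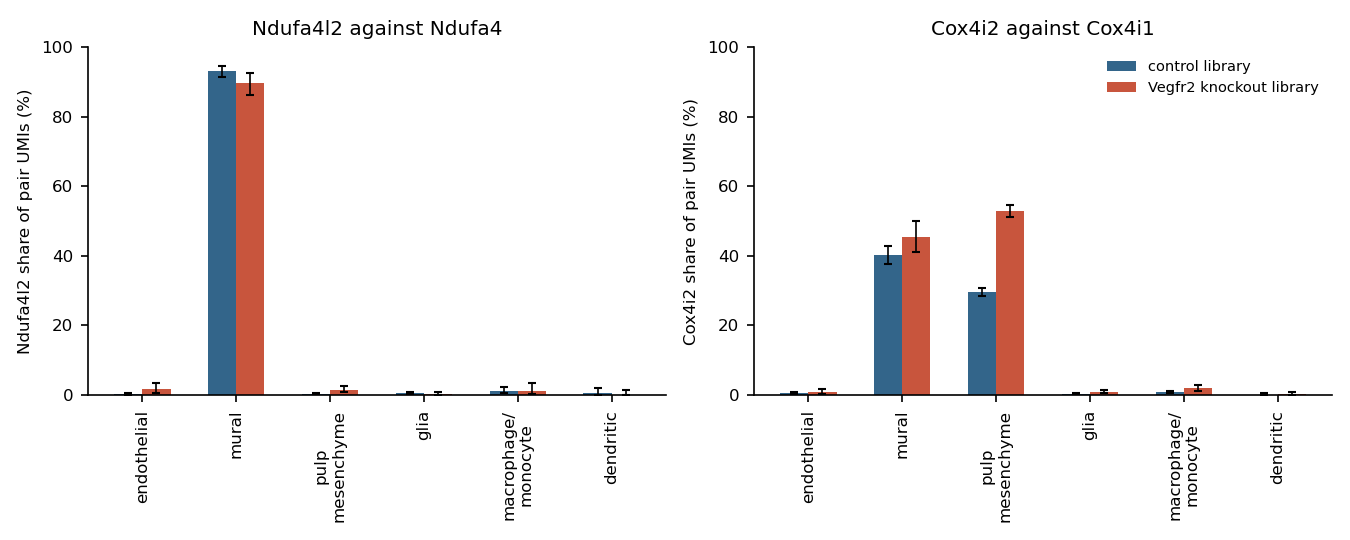
Share of the restricted form in the UMIs of each pair (percent) in 6 cell classes, Ndufa4l2 against Ndufa4 at left and Cox4i2 against Cox4i1 at right; bars are the control (blue) and Vegfr2 knockout (red) library and whiskers exact binomial 95% intervals for counting error. Ndufa4l2 reaches 93.1% and 89.8% in mural cells only, while Cox4i2 stands at 29.6% in control and 52.9% in knockout pulp mesenchyme.

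Cox4i2 was shared by mural cells and pulp mesenchyme, and it had the largest ratio between the libraries of any member with at least 50 UMIs in a class. In mural cells it stood at 605 CPM in control and 621.9 CPM in knockout, or 40.3% and 45.5% of the UMIs of the Cox4 pair. In pulp mesenchyme it stood at 305.8 CPM in control and 744 CPM in knockout, a ratio of 2.43 (2.29 to 2.59). Cox4i1 did not share this difference, with 728 and 662 CPM in the same cells, so Cox4i2 made up 29.6% (28.5 to 30.7) of the pair in control and 52.9% (51.3 to 54.5) in knockout mesenchyme. Most mesenchymal cells held both forms: 433 of 505 control and 271 of 307 knockout cells had UMIs of each. Thinned to 2000 UMIs, 36.6% (32.4 to 41.1) of 494 control and 70.8% (65.2 to 76.0) of 291 knockout cells had a Cox4i2 UMI, against 86.5% and 92.2% unthinned. The thinned shares were 0.682% and 2.26% in glia and 2.38% and 6.25% in macrophages or monocytes, at median depths of 12302 and 8725, and 12449 and 7474 UMIs. Mesenchymal and mural cells (58.6% and 58.0% thinned) thus stood above the shares of glia and macrophages or monocytes. Free RNA was not measured, so the low shares are given without a source, and the CPM of Cox4i2 was itself higher in the knockout in glia (2.27, 1.20 to 4.36) and in macrophages or monocytes (2.77, 1.48 to 5.24).

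The difference in Cox4i2 was present within each of the 4 clusters measured. The knockout over control ratio was 2.26 (1.99 to 2.56) in cluster 6, 2.26 (1.98 to 2.58) in cluster 8, 1.90 (1.41 to 2.52) in cluster 11 and 2.73 (2.28 to 3.29) in cluster 16. The control cells lay mostly in clusters 6, 8 and 11 (124, 212 and 116 cells) and the knockout cells in cluster 16 (188 of 307), so the libraries were not made up of the same clusters. Under the alternative settings for cells, gates and scaling, the ratio ran from 2.26 to 3.07. Markers of mural cells, where Cox4i2 is also high, summed to 145 CPM in control and 225 CPM in knockout mesenchyme, with 5 of 8 higher and 1 of 8 at 0 in the knockout, against 27641 and 30212 CPM in the mural class. Ndufa4l2, which exceeds Cox4i2 in mural cells, was at 2.41 CPM in control and 6.03 CPM in knockout mesenchyme. In the 2 mural clusters the ratio of Cox4i2 was 0.714 (0.514 to 0.976) in cluster 1 and 1.17 (0.981 to 1.39) in cluster 14.

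**Figure D3:**
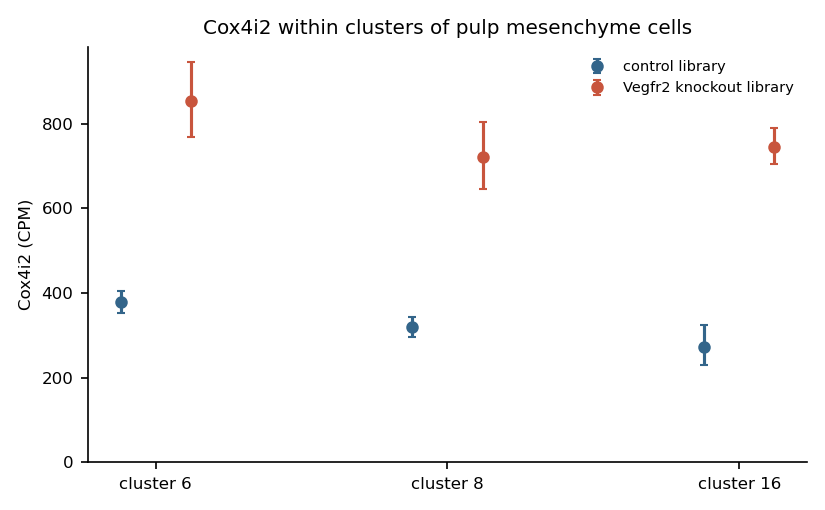
Cox4i2 level (CPM) in gated pulp mesenchyme cells of the control (blue) and Vegfr2 knockout (red) library within the 3 clusters with at least 20 cells of each; whiskers are exact Poisson 95% intervals for counting error. In clusters 6, 8 and 16 the knockout points lie between 722.0 and 853.7 CPM and the control points between 273.1 and 377.7 CPM.

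The muscle forms were close to absent. Cox7a1 stayed at or below 3.21 CPM in the 6 classes of either library, highest in control glia, where its partner Cox7a2 stood at 389 CPM. Cox6a2 was concentrated in a handful of cells: 6 control cells held 93 of the library's 106 kept UMIs and 5 knockout cells held 76 of 77. All 6 of those control cells and 4 of the 5 knockout cells also had a UMI of Siglech, a marker of plasmacytoid dendritic cells, which 33 of 2309 and 21 of 1679 kept cells had in all. At least 4 of 6 markers of that cell type were found in 5 of the 6 control cells but in 2 of the 5 knockout cells, which were gated as T or NK cells, as pulp mesenchyme or not at all, so the knockout cells are not named. Its partner Cox6a1 was at 157 to 256 CPM across the control classes. Cox6b2, known as the testis form of Cox6b1, was low but widespread, at 38.1 CPM in control dendritic cells, 28.2 in mesenchyme, 26.1 in macrophages or monocytes, 17.6 in mural cells, 7.78 in glia and 4.02 CPM in endothelial cells. Cox6b1 stood at 359 to 492 CPM in the same classes.

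Between the libraries, the members were lower in the knockout in most classes in sum. The summed level was 16274 CPM in control and 12790 in knockout endothelial cells, a ratio of 0.786 (0.772 to 0.8004). It was 0.826 (0.804 to 0.848) in mural cells, 0.869 (0.859 to 0.878) in pulp mesenchyme, 0.877 (0.869 to 0.886) in glia, 0.941 (0.924 to 0.958) in dendritic cells and 0.9496 (0.935 to 0.965) in macrophages or monocytes. The last of these turned to 1.01 with cells classed by cluster and to 1.03 in cells with a Y-linked UMI and no Xist UMI, so no direction is given for macrophages or monocytes. In the small classes the sums were 10618 CPM in 30 control and 13992 in 45 knockout neutrophils and 18925 and 16422 CPM in 28 and 30 B cells. Knockout cells were shallower in each of the 6 classes, at a median of 5963 against 10103 UMIs in endothelial cells and 13187 against 18862 in dendritic cells. With each cell thinned to 2000 UMIs the endothelial ratio stayed within its counting interval, at 0.795. The endothelial clusters held the libraries in unequal proportions, with 105 control and 12 knockout cells in cluster 9, 227 and 89 in cluster 12 and 73 and 40 in cluster 13. Neutrophil markers summed to 25.8 and 69.6 CPM and glial markers to 65.99 and 116 CPM in endothelial cells, and their part in the ratio was not tested. Fewer transcripts per cell and a larger share of other RNA cannot be told apart in CPM.

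**Figure D4:**
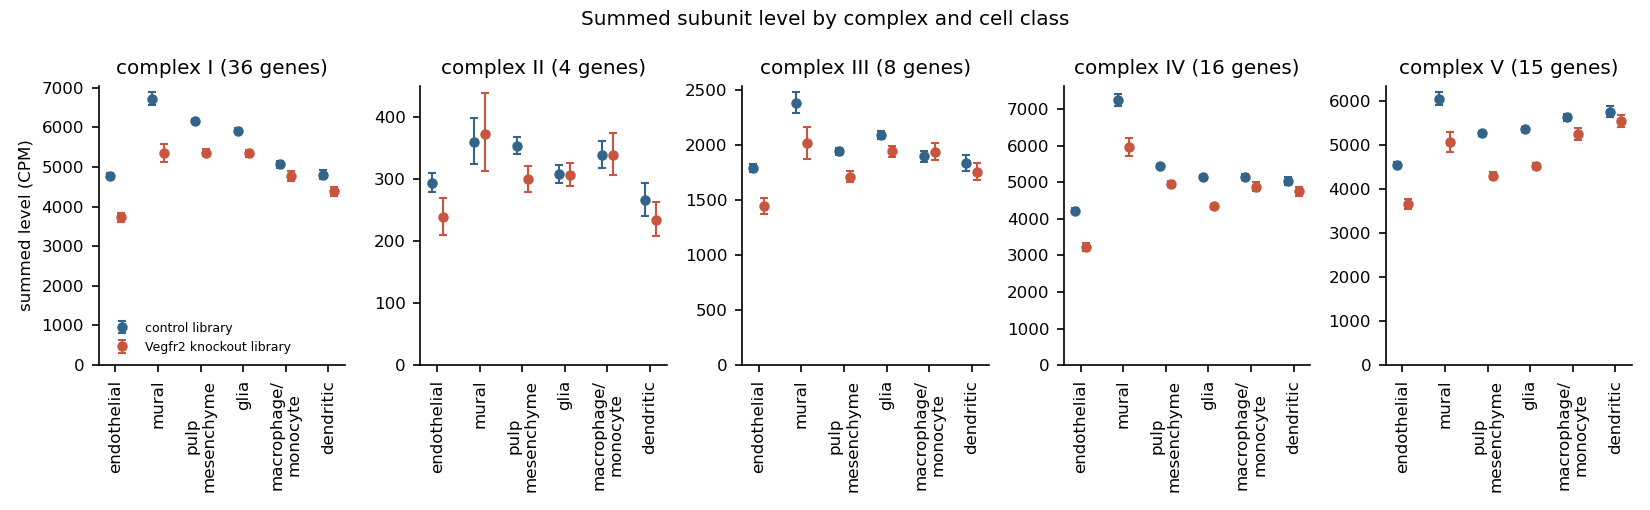
Summed level (CPM) of the members of complexes I to V in 6 cell classes of the control (blue) and Vegfr2 knockout (red) library; whiskers are exact Poisson 95% intervals for counting error and some are smaller than the points. Knockout points lie below control points for complexes I, IV and V in every class shown, from 0.764 of control for complex IV in endothelial cells to 0.964 for complex V in dendritic cells.

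By complex, the ratio over the 6 classes ran from 0.779 to 0.943 for complex I, from 0.764 to 0.949 for complex IV and from 0.804 to 0.964 for complex V. For complex III it ran from 0.805 in endothelial cells to 1.02 (0.973 to 1.07) in macrophages or monocytes. For complex II it ran from 0.811 (0.707 to 0.928) in endothelial cells to 1.03 (0.846 to 1.26) in mural cells, and its intervals held 1 in mural cells, glia, macrophages or monocytes and dendritic cells. The 7 core subunits of complex I were nearer to control than the 29 accessory ones, at 0.845 against 0.771 in endothelial cells, 0.983 against 0.892 in glia and 1.05 against 0.896 in dendritic cells, but 0.821 against 0.794 in mural cells. Complex IV in mesenchyme stood at 0.910, and at 0.818 (0.801 to 0.836) once Cox4i2 and Ndufa4l2 were left out.

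Single members differed modestly. A member was counted as higher or lower where the libraries differed by at least 1.5-fold and it had at least 50 UMIs in the class. In endothelial cells 0 of 83 members were higher and 15 (18.1%) lower, where 9.59% and 12.1% of all 9353 genes were. In mural cells 0 of 80 were higher and 13 (16.3%) lower, against 10.6% and 10.5% of 4539 genes. In pulp mesenchyme 1 of 86 was higher and 3 lower, against 8.89% and 11.5% of 10846 genes. In glia 2 of 85 were higher and 1 lower, against 7.65% and 7.83% of 10011 genes. In macrophages or monocytes 1 of 80 was higher and 3 lower, against 10.1% and 7.20% of 7320 genes, and in dendritic cells 1 of 79 was higher and 3 lower, against 7.59% and 11.7% of 5270 genes. Outside endothelial and mural cells the share of members counted as lower was below that of all genes at these settings. The call uses no interval and all genes were not matched to the members for UMI count. How far counting error makes these shares differ was not tested. The number past 1.5-fold in either direction varied with the setting, from 2 to 26 in endothelial cells, 0 to 22 in mural cells, 1 to 8 in mesenchyme and 0 to 7 in each of the other 3 classes. The shift showed in the medians: the median log2 ratio was -0.33 for members and -0.02 for all genes in endothelial cells, -0.27 and 0.00 in mural cells, -0.24 and -0.05 in mesenchyme, -0.16 and 0.00 in glia, -0.11 and 0.02 in macrophages or monocytes, and -0.10 for both in dendritic cells.

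**Figure D5:**
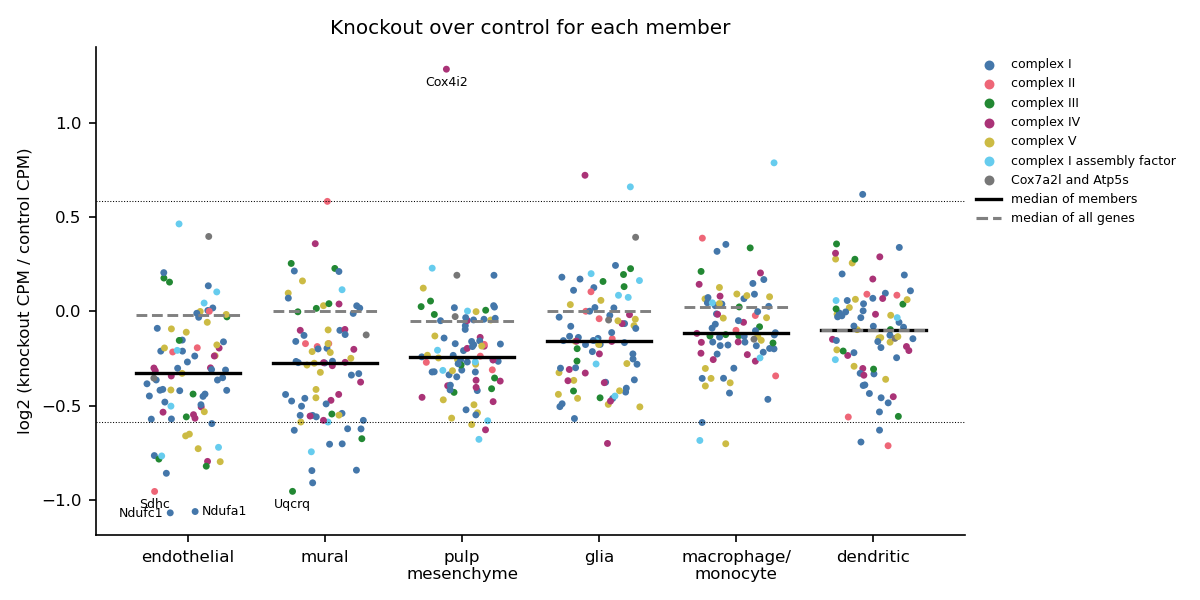
Log2 ratio of knockout to control CPM for each member with at least 50 UMIs in the class, coloured by complex; black lines are the median of the members, dashed grey lines the median of all genes, and dotted lines mark 1.5-fold. The members' median lies below that of all genes in 5 of 6 classes, at -0.33 against -0.02 in endothelial cells, and Cox4i2 at 1.28 in pulp mesenchyme lies apart from the rest.

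In endothelial cells the lowest ratios with an interval below 1 belonged to 2 accessory subunits of complex I and 1 subunit of complex II. Ndufc1 was at 142 CPM in control and 67.7 in knockout, a ratio of 0.478 (0.369 to 0.610). Ndufa1 was at 149 and 71.5 CPM, a ratio of 0.480 (0.374 to 0.609), and Sdhc at 68.3 and 35.3 CPM, a ratio of 0.517 (0.358 to 0.726), which was 0.835 in cells with a Y-linked UMI and no Xist UMI. The other 12 endothelial members counted as lower were Ndufa3, Ndufa11, Ndufb3, Uqcr11, Uqcrq, Cox7b, Atp5e, Atp5j2, Atp5k, Atp5o, Ndufaf2 and Ndufaf8. In mural cells Uqcrq, a small subunit of complex III, was lowest at 317 and 164 CPM, a ratio of 0.517 (0.388 to 0.679). Ndufa9 followed at 0.533 (0.270 to 0.977), on 63.4 and 33.8 CPM, and Ndufb4 at 0.558 (0.388 to 0.784), though after thinning Ndufb4 stood at 1.03. Of the 13 mural members counted as lower, 8 were among 36 measured in complex I and 2 among 8 in complex III (Uqcrq and Uqcr11). Of the others, 1 was among 15 in complex V (Atp5k) and 2 among 3 assembly factors (Ndufaf2 and Ndufaf4).

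In pulp mesenchyme Cox4i2 was the member counted as higher, and Cox7b, Atp5o and Ndufaf5 those counted as lower. Cox7b, a small complex IV subunit encoded on the X chromosome, was at 285 and 185 CPM, a ratio of 0.648 (0.586 to 0.715). Atp5o, the oligomycin sensitivity-conferring subunit in the stalk of complex V, was at 246 and 163 CPM, a ratio of 0.660 (0.593 to 0.734). In glia Cox7b again was the member counted as lower, at 244 and 151 CPM, a ratio of 0.616 (0.556 to 0.682). Ndufaf6 was higher on few UMIs, with an interval that held 1, and Cox6b2 was higher there at 7.78 and 12.8 CPM, a ratio of 1.65 (1.07 to 2.55), but 0.932 after thinning. In macrophages or monocytes Atp5o was lower at 210 and 129 CPM, a ratio of 0.615 (0.513 to 0.735), with Ndufs4 at 0.665 (0.498 to 0.879) and Ndufaf3 also lower, and the assembly factor Ndufaf4 was higher at 15.4 and 26.6 CPM, a ratio of 1.73 (1.06 to 2.78). In dendritic cells Sdhc (0.611, 0.403 to 0.913), Ndufs6 (0.619, 0.462 to 0.825) and Ndufb3 (0.647, 0.513 to 0.813) were lower, and the flavin-binding subunit Ndufv1 was higher at 45.0 and 69.1 CPM, a ratio of 1.54 (1.10 to 2.16). The class was made up differently in each library: cluster 22, named dendritic, held 5 control and 70 knockout cells, and among gated dendritic cells Ccr7 stood at 30.6 and 139 CPM and Fscn1 at 11.6 and 63.3 CPM. Their part in these ratios was not tested.

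Most of these calls depended on the setting. Under the alternatives run, Ndufc1 and Ndufa1 in endothelial cells, Uqcrq and Ndufa9 in mural cells and Cox4i2 in mesenchyme stayed past 1.5-fold, and each of the other members named by ratio came within it at least once. In mesenchyme Cox7b ranged from 0.552 to 0.828 and Atp5o from 0.562 to 0.876, and Cox7b in glia from 0.556 to 0.7003. In macrophages or monocytes Ndufs4 ranged from 0.410 to 0.852, Atp5o from 0.554 to 0.719 and Ndufaf4 from 1.19 to 2.67. In dendritic cells Ndufs6 ranged from 0.401 to 0.733, Ndufb3 from 0.370 to 0.729, Sdhc from 0.441 to 0.674 and Ndufv1 from 1.29 to 1.76.

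Across classes the pattern was steadier for some genes than for others. Of 77 members measured in all 6 classes, 37 (48.1%) were below 1 in every class, against 14.2% of 3261 genes. Only Uqcrc2, a core protein of complex III, was above 1 in every class, with ratios between 1.00 and 1.28, against 7.02% of genes. All 6 comparisons rest on the same 2 libraries, so they are not independent of each other. The lowest median log2 ratios over classes among those 77, singled out after their values were seen, belonged to Atp5o (-0.52), Atp5k (-0.51), Uqcr11 (-0.51), Atp5e (-0.50) and Ndufa3 (-0.50). Atp5e, the most abundant of these, went from 562 to 359 CPM in endothelial cells (0.638, 0.571 to 0.710), from 711 to 481 CPM in mesenchyme (0.676, 0.635 to 0.719) and from 961 to 835 CPM in dendritic cells (0.869, 0.8003 to 0.943), reading control first. Over the 6 classes, the most abundant members of the other complexes ran from 0.751 to 0.897 (Ndufa2, complex I), from 0.862 to 1.498 (Sdhb, complex II), from 0.980 to 1.16 (Uqcrh, complex III) and from 0.829 to 1.06 (Cox4i1, complex IV).

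Members with short transcripts had lower median ratios than those with long ones. Length here is the median over the annotated transcripts of a gene, which can differ from that of the transcript counted. The rank correlation of length and ratio was weak, from 0.07 in macrophages or monocytes to 0.39 in endothelial cells. Among members in the shortest tercile by transcript length (up to 598 bases), the median log2 ratio in endothelial cells was -0.48 over 28 genes, against -0.21 over 28 genes in the longest tercile (over 923 bases). In mesenchyme the 2 medians were -0.34 and -0.23, in mural cells -0.44 and -0.22, and in macrophages or monocytes -0.13 and -0.11. Genes that were no members and shorter than 1000 bases had an endothelial median of -0.10 and longer ones of 0.01, while in dendritic cells the order was the reverse, at -0.07 and -0.11. The 77 cytosolic ribosomal protein genes had median log2 ratios of -0.19 in endothelial cells, -0.39 in mural cells, -0.42 in mesenchyme, -0.32 in glia, -0.19 in macrophages or monocytes and -0.03 in dendritic cells. With mitochondrial and ribosomal protein genes left out of the scaling, the summed members stood at 0.760 of control in endothelial cells and 0.836 in mesenchyme. The part of transcript length, depth and software version in these ratios was not tested.

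Promoter sequence was examined for what the members share. RefSeq promoter windows (GRCm38.p6, 250 bases before to 50 after the start) were found for 72 of 89 members, in 77 windows. No window was found for Ndufa4l2, Cox4i2, Cox4i1 or Cox6a2. The core motif of NRF1, a known activator of respiratory genes, spelled GCATGCGC and its own reverse complement, occurred in 12 of the 77 windows (15.6%) and in 2.71% of all 32851 windows. The ETS core CCGGAAGT, on either strand, occurred in 5 (6.49%) against 3.89%. The 2 short cores of the hypoxia response element were also searched. ACGTG occurred in 17 (22.1%) against 19.6%, and GCGTG in 43 (55.8%) against 32.4%. The base composition of the windows was not compared. The 3 windows shown were picked because they stand for these cases: Ndufa8, the endothelial-high member, has the NRF1 core 8 bases before the start. Uqcr11 and Cox7b were both below 1 in all 6 classes, with an interval that held 1 in macrophages or monocytes for Uqcr11 and in mural cells for Cox7b. Uqcr11 has the NRF1 core at 4 and the ETS core at 66 bases before the start, and Cox7b has neither. Capitals mark the NRF1 and ETS cores only, on chr2:36049289-36049588 (minus strand), chr10:80406772-80407071 (minus strand) and chrX:106015450-106015749 (plus strand).
Ndufa8: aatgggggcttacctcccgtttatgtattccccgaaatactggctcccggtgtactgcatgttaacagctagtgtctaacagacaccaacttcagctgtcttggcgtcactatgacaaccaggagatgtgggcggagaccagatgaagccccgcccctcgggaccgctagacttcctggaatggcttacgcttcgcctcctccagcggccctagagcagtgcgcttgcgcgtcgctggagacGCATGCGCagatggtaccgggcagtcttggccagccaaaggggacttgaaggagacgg
Uqcr11: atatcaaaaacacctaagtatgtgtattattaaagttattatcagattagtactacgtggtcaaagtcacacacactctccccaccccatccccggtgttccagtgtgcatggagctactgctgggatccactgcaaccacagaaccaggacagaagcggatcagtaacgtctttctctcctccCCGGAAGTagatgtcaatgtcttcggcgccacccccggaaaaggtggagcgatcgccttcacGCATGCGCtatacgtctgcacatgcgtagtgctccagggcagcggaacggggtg
Cox7b: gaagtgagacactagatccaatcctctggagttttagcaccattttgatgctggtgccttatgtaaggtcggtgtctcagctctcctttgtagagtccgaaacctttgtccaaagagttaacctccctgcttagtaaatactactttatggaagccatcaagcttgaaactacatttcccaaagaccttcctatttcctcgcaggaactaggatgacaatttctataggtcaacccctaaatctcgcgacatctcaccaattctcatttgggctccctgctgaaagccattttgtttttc
A match describes these letters only and no match in a window says nothing of the factor.

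The 13 subunits encoded by mitochondrial DNA did not share the nuclear genes' pattern in sum. Their summed level in knockout over control was 0.928 (0.918 to 0.938) in endothelial cells, 0.994 (0.978 to 1.01) in mural cells, 1.25 (1.25 to 1.26) in pulp mesenchyme, 1.07 (1.06 to 1.07) in glia, 1.18 (1.16 to 1.19) in macrophages or monocytes and 1.05 (1.04 to 1.07) in dendritic cells. The sum and the median gene went opposite ways in 4 of these classes, since the median log2 ratio was below 0 in all 6, from -0.42 in mural cells to -0.11 in mesenchyme. mt-Co1 and mt-Co3, catalytic-core subunits of complex IV, were above 1 in each class and reached 1.74 and 1.59 in mesenchyme, where mt-Co1 went from 6552 to 11420 CPM. mt-Atp8 was lowest in each class, between 0.227 and 0.400, and mt-Nd4l and mt-Nd6 were below 1 in each. The unequal ratios within one polycistronic genome are given as measured, and cells were filtered on their mitochondrial share, so these sums depend on that filter.

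Other genes of the pathway were taken from lists fixed together with the members. The list of electron carriers holds Cycs and also Cyc1, a subunit of complex III. Its measured genes past 1.5-fold were 0 of 5, 4, 5, 5, 5 and 4. The order is endothelial, mural, mesenchymal, glial, macrophage and dendritic cells throughout this paragraph. Among all genes the share counted as lower was 12.1%, 10.5%, 11.5%, 7.83%, 7.20% and 11.7%. The share counted as higher was 9.59%, 10.6%, 8.89%, 7.65%, 10.1% and 7.59%. Complex IV assembly factors were lower for 4 of 13, 1 of 4, 4 of 13, 0 of 13, 0 of 9 and 2 of 7, including Cox17, the copper chaperone, at 0.550 (0.393 to 0.752) in endothelial and 0.641 (0.522 to 0.783) in mesenchymal cells, and 1 (Cox16, in macrophages) was higher. Assembly factors of complexes II and III were lower for 3 of 8, 1 of 3, 1 of 10, 1 of 9, 1 of 7 and 0 of 5, and 1 (Ttc19, in dendritic cells) was higher. Those of ATP synthase were lower for 2 of 4 in endothelial cells (Atpaf2 and Atpif1) and for 0 of 1, 4, 4, 2 and 2 elsewhere. Complex I assembly factors outside the symbol rule were lower for 1 of 6 endothelial and 3 of 6 mesenchymal genes and higher for 1 in each, and 0 of 6 glial and 0 of 1 macrophage genes passed 1.5-fold, with none measured in mural and dendritic cells. Of the TCA cycle enzymes 1 of 16, 3 of 15, 0 of 16, 1 of 16, 1 of 16 and 2 of 16 were lower and 0 higher. Regulators of mitochondrial genes were past 1.5-fold for 1 of 7 endothelial (Tfb2m, higher) and 2 of 6 macrophage genes (Esrra and Tfam, lower). They were also past it for 2 of 3 dendritic genes, of which Nrf1 was higher and Tfam lower. In mesenchyme 0 of 9 and in glia 0 of 8 passed, with none measured in mural cells. Tfam, which packages mitochondrial DNA, stood at 0.511 (0.278 to 0.884) in macrophages or monocytes, on 76 control and 16 knockout UMIs. It was below 1 in the other classes too, at 0.711 (0.521 to 0.957) in mesenchyme and 0.700 (0.533 to 0.912) in glia. In endothelial, mural and dendritic cells its interval held 1.

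Hypoxia-inducible genes, the class to which Ndufa4l2 and Cox4i2 are known to belong, were higher in the knockout in several classes. In pulp mesenchyme 9 of the 11 that could be measured passed 1.5-fold upward, where 8.89% of all genes did, and the list's median log2 ratio was 1.18. Among them, singled out after their values were seen, Vegfa stood at 68.8 and 220 CPM (3.20, 2.83 to 3.62), Ldha at 231 and 665.9 CPM (2.88, 2.69 to 3.08) and Ankrd37 at 8.94 and 70.1 CPM (7.85, 5.87 to 10.6). The counts were 5 of 11 in endothelial cells (median 0.49), 0 of 5 in mural cells (0.30), 1 of 8 in glia (0.22), 5 of 8 in macrophages or monocytes (1.14) and 3 of 7 in dendritic cells (0.51), with 0 lower in any of the 6. Among all genes 9.59%, 10.6%, 7.65%, 10.1% and 7.59% were higher in these classes, in the same order. In macrophages or monocytes Vegfa stood at 5.49 and 53.3 CPM (9.70, 5.54 to 18.0), while Cox4i2 there was at 7.21 and 19.98 CPM and Ndufa4l2 at 3.09 and 2.50 CPM, both with few UMIs. Markers of other cell types also moved in mesenchyme, with neutrophil markers summing to 26.9 and 78.4 CPM and glial markers to 64.8 and 111 CPM. Their part in these ratios was not tested.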

How the data were processed

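Single-cell RNA was measured in 2 libraries, 1 per genotype. The deposited matrices hold raw UMI counts per gene and barcode; the control matrix was made with Cell Ranger 5.0.0 and the knockout matrix with 6.0.1, per the file headers, while the submitters' processing notes name version 6.0.1 and mm10. Barcodes below 500 genes or 1000 UMIs, or above 10% mitochondrial UMIs, were dropped, and 20 control and 4 knockout cells called as doublets by Scrublet were removed. Clusters were made with scanpy 1.11.5 without the member genes (2000 variable genes, 30 components, 15 neighbours). Counts were summed per class and library and scaled to CPM (per 1000000). Ratios have exact conditional Poisson intervals and shares exact Clopper-Pearson intervals (scipy 1.17.1). A gene was measured in a class from 50 UMIs over both libraries. Shares over all genes were not matched to the members or the lists for UMI count. The ratio script was tested on simulated data.

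The members and lists were chosen with earlier results of these data known. Genes named with values were the restricted isoforms and their partners, the 4 complex II genes, the highest control gene of each complex, the 3 highest and 3 lowest ratios per class past 1.5-fold with an interval without 1, and the 3 most uneven members; other genes given with values were singled out after their values were seen. Alternatives changed the mitochondrial limit, the gate, the depth per cell, the weighting, the scaling, the sex of the cells, doublet removal and the calling limits. Protein sequences were not used here.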

Additional observations from a re-analysis of the deposited data

Results flagged for a closer look

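For 4 members the knockout over control ratio lay below 1 in one class and above 1 in another, each with a counting interval that held no 1. The difference between classes was not tested in any of them, since each genotype has 1 library, and 89 members in 6 classes were searched. The same search was not run over all genes, so whether 4 is many or few is not known. Cox5a, a subunit of complex IV, stood at 0.722 (0.515 to 0.995) in mural cells and 0.837 (0.751 to 0.931) in pulp mesenchyme, but at 1.15 (1.02 to 1.30) in macrophages or monocytes and 1.24 (1.07 to 1.43) in dendritic cells. Sdhd, a membrane anchor of complex II, stood at 0.807 (0.668 to 0.971) in mesenchyme and 1.31 (1.05 to 1.63) in macrophages or monocytes. The complex I accessory subunits gave the others: Ndufb10 stood at 0.650 (0.466 to 0.892) in mural cells and Ndufv3 at 0.749 (0.583 to 0.94996) in endothelial cells, against 1.25 (1.07 to 1.45) and 1.28 (1.07 to 1.53) in macrophages or monocytes. All 4 were above 1 in macrophages or monocytes, the class whose summed ratio changed side with the way cells were classed.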

How the results depend on the processing

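No paired analysis was possible because each genotype has 1 library. Of 220 values of the main results under alternative settings, 161 moved by less than their counting interval or 1.5 times, 56 moved further and 3 changed direction; the cause was not tested. The summed ratio of macrophages or monocytes turned to 1.007 with Leiden clusters and to 1.032 in cells with a Y-linked UMI and no Xist UMI, and that of Ndufa4l2 in mural cells to 1.006 after thinning. Among single genes, Ndufb4 in mural cells turned to 1.027 and Cox6b2 in glia to 0.9322 after thinning.

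Other summed ratios kept their direction. Scaling without mitochondrial and ribosomal protein genes gave 0.7601 in endothelial cells, 0.7953 in mural cells, 0.8358 in mesenchyme, 0.8447 in glia and 0.9132 in macrophages. Cells with Xist and no Y-linked UMI gave 0.8085 in endothelial cells, 0.8403 in mesenchyme, 0.8605 in glia and 0.9062 in macrophages, and cells with the reverse gave 0.7516, 0.9344 and 0.8977 in the first 3 of these. Thinning gave 0.8565 in mural cells, 0.8651 in glia and 0.916 in macrophages, and equal weight per cell 0.8528, 0.8666 and 0.926. Clusters gave 0.8006 in mural and 0.9195 in dendritic cells. A limit of 20% mitochondrial UMIs gave 0.8871 in mesenchyme and 0.9191 in macrophages, and one of 5% gave 0.8918 in mesenchyme.

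The number of members past 1.5-fold became 26 in endothelial cells with equal weights and also in cells with a Y-linked UMI and no Xist UMI. The last setting gave 7 in mesenchyme and 7 in macrophages. Thinning gave 7 in glia, 7 in macrophages and 7 in dendritic cells, and equal weights 1 in glia. The other scaling gave 22 in mural cells and 8 in mesenchyme. Limits of 20% and 5% mitochondrial UMIs gave 1 and 7 in mesenchyme. In macrophages, at least 4 markers gave 2 and clusters 2. A 2-fold call left 2 in endothelial cells, 1 in mesenchyme and 0 in mural, glial, macrophage and dendritic cells, and 200 or more UMIs left 7 in mural cells, 1 in glia, 2 in macrophages and 2 in dendritic cells.

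The Cox4i2 ratio in mesenchyme was 2.897 at 5% mitochondrial UMIs, 3.073 after thinning, 2.263 with equal weights and 2.729 in cells with a Y-linked UMI and no Xist UMI. Its control share of the pair was 25.97% after thinning and 26.21% in the last of these, and its knockout share 57.6% at 5%. The control share of Ndufa4l2 in mural cells was 86.25% by clusters and 95.81% after thinning. Not run, with fewer than 20 cells in a library, were mural cells at 5% mitochondrial UMIs and mural and dendritic cells with a Y-linked UMI and no Xist UMI.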
